A study of Mus musculus with 4 samples.

Results

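The genes described here encode the glucose carriers and enzymes of glycolysis, the enzymes and carriers of lactate, the gate by which pyruvate enters the mitochondrion, and the pentose phosphate pathway. Their probes were matched by name alone, as all non-control probes whose gene name in the scanner files equals one of 42 listed genes. No measured value entered this match, but the list itself was chosen with earlier results of these data known. The rule found 69 of 61307 probes and 42 of 50090 gene names. Of the 42 genes, 38 were bright enough to be tested, and 4 were not: Slc2a3, a glucose carrier of neurons, Aldoc, the brain aldolase, and the gluconeogenic phosphatases Fbp1 and Fbp2.

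The cells were C3H10T1/2, a mouse embryo fibroblast line used to score transformation by chemicals. The titles of both groups give 6 weeks in culture. The 2 control arrays held RNA of cells with no treatment named in their titles. The 2 3MC+TPA arrays held RNA of cells given 3MC, a polycyclic aromatic hydrocarbon, at 2.5 µg/ml for 2 days, then 4 days of fresh medium, then TPA, a phorbol ester, at 100 ng/ml 2 times a week for 2 weeks, and then 4 weeks of medium without either agent. The labels do not say whether the RNA came from picked foci or whole flasks, nor whether a group's 2 arrays hold RNA of separate cultures. The design text says that RNA was hybridised in duplicate, so the spread behind each p-value may be technical.

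Glycolysis splits glucose into pyruvate and yields ATP without oxygen. Lactate dehydrogenase then turns pyruvate into lactate, which leaves the cell through monocarboxylate carriers, or the pyruvate dehydrogenase complex passes it to the citric acid cycle unless its kinases switch it off. The pentose phosphate pathway branches off at glucose phosphate and makes NADPH and ribose. Many tumours and transformed fibroblasts are known for high glucose uptake and lactate output, and many of these steps have several isozymes, each with its own gene and tissues.

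Levels below are log2 of the array's processed signal minus that array's 75th percentile, so that 0 stands for a signal at this percentile. A level serves to set a probe against itself on the other arrays, not against other probes. A change is the mean of the 3MC+TPA arrays minus the mean of the control arrays on this log2 scale, with the standard error of the limma fit, and a gene with an adjusted p under 0.05 is said to have passed. In bulk RNA, fewer cells with a transcript and less of it per cell cannot be told apart.

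Most steps of the main line from glucose to pyruvate did not pass, while single isozymes and branch enzymes differed by 1.72-fold to 3.37-fold. Of the 38 genes tested, 10 passed, against 15.7% of all 24976 features tested. The 8 that fell were Ldhb, Pfkfb2, Slc16a3, G6pdx, Pgk1, Pdk3, Rpia and Pdha1, which is 21.1% of the 38, beside 8.35% of all features. The 2 that rose were Eno3 and Pgam2, which is 5.26%, beside 7.34%. The groups did not overlap for 26 of the 38 genes, a share of 68.4% that lies near the 63.8% of all features. The median change was -0.27 over the 38 genes and -0.01 over all features, and 27 of the 38 changes were negative. Without scaling between arrays the median of all features moved to 0.34 and that of these genes to 0.08, and 5 genes rose. Only Ldhb passed with any of the 4 arrays left out, and without 3MC+TPA array 1 or array 2 only 3 genes passed. With no filter on dim probes Ldhb, Pgk1 and Pgam2 passed, and the plain t-test of the study's methods gave none after adjustment.

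**Figure D1:**
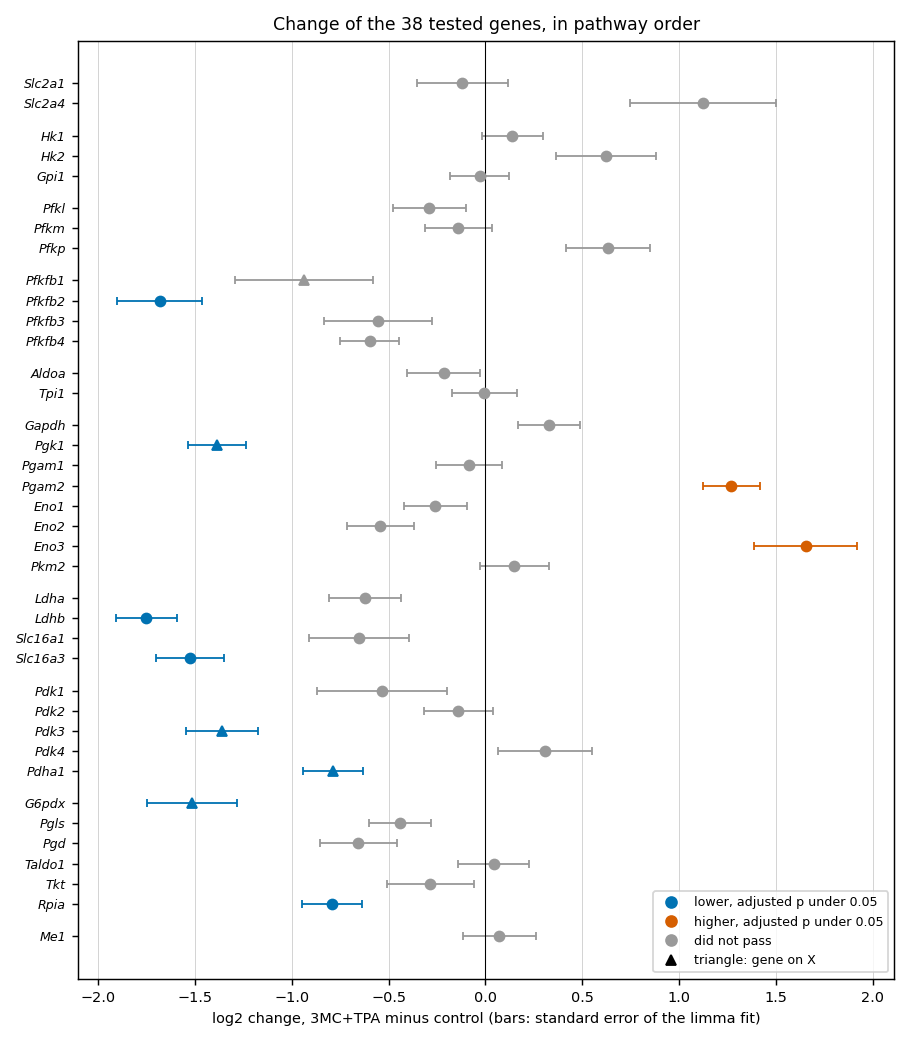
Change of each of the 38 tested genes in pathway order, as the log2 difference of 3MC+TPA minus control, with the standard error of the fit. Blue points fell, orange points rose, grey points did not pass, and triangles mark genes on the X chromosome. The changes that passed run from -1.75 for Ldhb to 1.65 for Eno3, and those of Gpi1, Tpi1 and Taldo1 lie within 0.05 of 0.

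At the entry of glucose, neither the carriers nor the hexokinases passed. Slc2a1, the glucose carrier of most cultured cells, stood at 4.06 and 4.02 on control arrays 1 and 2 and at 4.22 and 3.63 on 3MC+TPA arrays 1 and 2. The 3MC+TPA arrays lay on either side of the controls, and the change of -0.12 had a 95% interval of -0.72 to 0.48. Slc2a4, the insulin-responsive carrier of muscle and fat, was not well above background on either control array (-4.70 and -5.75) and reached -3.92 and -4.29 on the exposed arrays. It was at least 1.56-fold higher there but did not pass (adjusted p = 0.11). It was tested through the exposed arrays alone, which favours a rise. Its fitted change ran from 0.60 without control array 2 to 1.65 without control array 1. Slc2a3 lay between -6.98 and -6.71 on all 4 arrays, never well above background. Hk1, the housekeeping hexokinase that traps glucose in the cell, had a change of 0.14 (interval -0.27 to 0.54), and its 5 tested probes all had a positive change without passing. Hk2, the inducible hexokinase, stood at 2.46 and 2.79 on the control arrays and at 3.54 and 2.96 on the 3MC+TPA arrays. All values of the exposed cells were higher, but the 3MC+TPA arrays lay further apart than the controls and the change of 0.62 ± 0.26 did not pass (adjusted p = 0.16). Gpi1, the glucose phosphate isomerase, had a change of -0.03 (interval -0.42 to 0.36). Of these 5 tested genes, only Slc2a4 had an unadjusted p under 0.05 in limma, and the methods' t-test gave none.

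The phosphofructokinases commit the sugar to glycolysis. None of the 3 subunit genes passed in limma, 1 had an unadjusted p under 0.05, and the methods' t-test gave none. The liver-type subunit Pfkl had a change of -0.29 and the muscle-type subunit Pfkm one of -0.14. Pfkp, the platelet-type subunit, stood at 0.91 and 0.55 on the control arrays and at 1.54 and 1.18 on the 3MC+TPA arrays, with no overlap, and its change of 0.63 ± 0.22 did not pass (adjusted p = 0.11). Its second probe had a change of 0.72.

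The PFKFB enzymes make and remove the fructose bisphosphate that switches phosphofructokinase on, and all 4 genes had a negative change, which turned sign under none of the alternatives tried. Pfkfb2, the heart-type enzyme, stood at 1.03 and 1.50 on the control arrays and at -0.30 and -0.54 on the 3MC+TPA arrays. The groups were clearly apart, and Pfkfb2 fell by 1.68 ± 0.22, or 3.21-fold (limma adjusted p = 0.011). All 4 of its tested probes fell, 3 of them by 1.35 to 1.87 on the log2 scale. The dimmest, tested through the control arrays alone and not well above background on the 3MC+TPA arrays, was at least 3.44-fold lower there. Without 3MC+TPA array 1 or array 2 the adjusted p of Pfkfb2 was 0.052 or 0.069. Pfkfb4, an isozyme of testis and of low oxygen, stood at 0.88 and 0.99 in control and 0.30 and 0.38 in exposed cells, and its change of -0.60 ± 0.15 missed the threshold (adjusted p = 0.061). Pfkfb3, the inducible isozyme of dividing cells, had a change of -0.55 ± 0.28 on its brightest probe (adjusted p = 0.23). A much dimmer probe of Pfkfb3, tested through the control arrays alone, was not well above background on the 3MC+TPA arrays. It was at least 1.32-fold lower there, and its limma adjusted p over probes (0.038) is no separate support for a fall. Pfkfb1, the liver and muscle isozyme, was uneven in the control cells (-1.64 and -0.63) and stood at -1.95 and -2.19 in the exposed cells. Its change of -0.94 ± 0.36 did not pass (adjusted p = 0.14). It was -1.44 and passed without control array 1 (adjusted p = 0.023), and it was -0.43 without control array 2 (adjusted p = 0.31).

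Aldolase and triose phosphate isomerase cut the sugar and interconvert its products. Aldoa, the aldolase of muscle and most other cells, stood at 8.72 and 8.34 on the control arrays and at 8.31 and 8.32 on the 3MC+TPA arrays. The exposed values lay just below the lower control, with a change of -0.22 (interval -0.70 to 0.27). Tpi1 had a change of -0.01, with an interval of -0.43 to 0.42. Neither of them passed, and neither had an unadjusted p under 0.05 in limma or in the methods' t-test. Aldoc was well above background on 1 array of each group and was not tested.

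In the lower line from glyceraldehyde phosphate to pyruvate Pgk1 fell, while the enzymes just before and after it did not pass. Gapdh, which makes the first energy-rich intermediate, stood at 7.50 and 7.45 on the control arrays and at 7.70 and 7.91 on the 3MC+TPA arrays. Its change of 0.33 ± 0.16 did not pass (adjusted p = 0.22), and all 4 of its probes had a positive change. Of these, 3 were designed on predicted transcripts that the gene table does not list, and the values given belong to the brightest of the 3. The probe on the listed transcript had a change of 0.41 and did not pass either. Pgk1, the next enzyme and the first that yields ATP, stood at 7.63 and 7.51 on the control arrays and at 6.19 on both 3MC+TPA arrays. Pgk1 fell by 1.38 ± 0.15, or 2.61-fold (adjusted p = 0.0068). Its second probe fell by 1.25 in a fit that dropped control array 1, where the spot had an outlier flag. Without 3MC+TPA array 2 the adjusted p of Pgk1 was 0.0502. Pgam1, the common phosphoglycerate mutase that follows, had a change of -0.09 (interval -0.52 to 0.35).

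The muscle isozymes of this stretch rose. Pgam2, the muscle mutase, stood at -2.85 and -2.78 on the control arrays and at -1.52 and -1.57 on the 3MC+TPA arrays, a rise of 1.27 ± 0.15, or 2.41-fold (adjusted p = 0.0081). Over the alternatives tried the change of its single probe ran from 0.79 to 1.62. Eno3, the muscle enolase, stood at 3.43 and 2.72 in control and at 4.69 and 4.77 in exposed cells. The control arrays lay further apart than the exposed, yet both exposed values were higher, and Eno3 rose by 1.65 ± 0.27, or 3.15-fold (adjusted p = 0.019). Without 3MC+TPA array 1 or array 2 the adjusted p was 0.052 or 0.053 for Pgam2 and 0.087 or 0.099 for Eno3. The other enolases had negative changes that did not pass: -0.26 ± 0.16 for Eno1, the common form, and -0.54 ± 0.17 for Eno2, the neuronal form (adjusted p = 0.33 and 0.097). Pkm2, now Pkm, the pyruvate kinase of most tissues outside liver, had a change of 0.15 (interval -0.31 to 0.60), and its single probe is not known here to tell the splice forms apart.

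Muscle markers were read beside these isozymes. Of 10 skeletal muscle markers, 3 were tested and none passed, none had an unadjusted p under 0.05 in limma, and the methods' t-test gave none either. The regulators Myod1, Myog, Myf5 and Myf6 and the contractile and energy genes Ckm and Myh4 were well above background on no array. The summed signal of the 10 markers, on the log2 scale, ran from 2.49 to 3.20 over the control arrays. Over the 3MC+TPA arrays it ran from 2.58 to 2.88. This sum is mostly Acta1, skeletal actin, which stood at 3.12 and 2.42 on the control arrays and at 2.53 and 2.77 on the 3MC+TPA arrays.

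**Figure D2:**
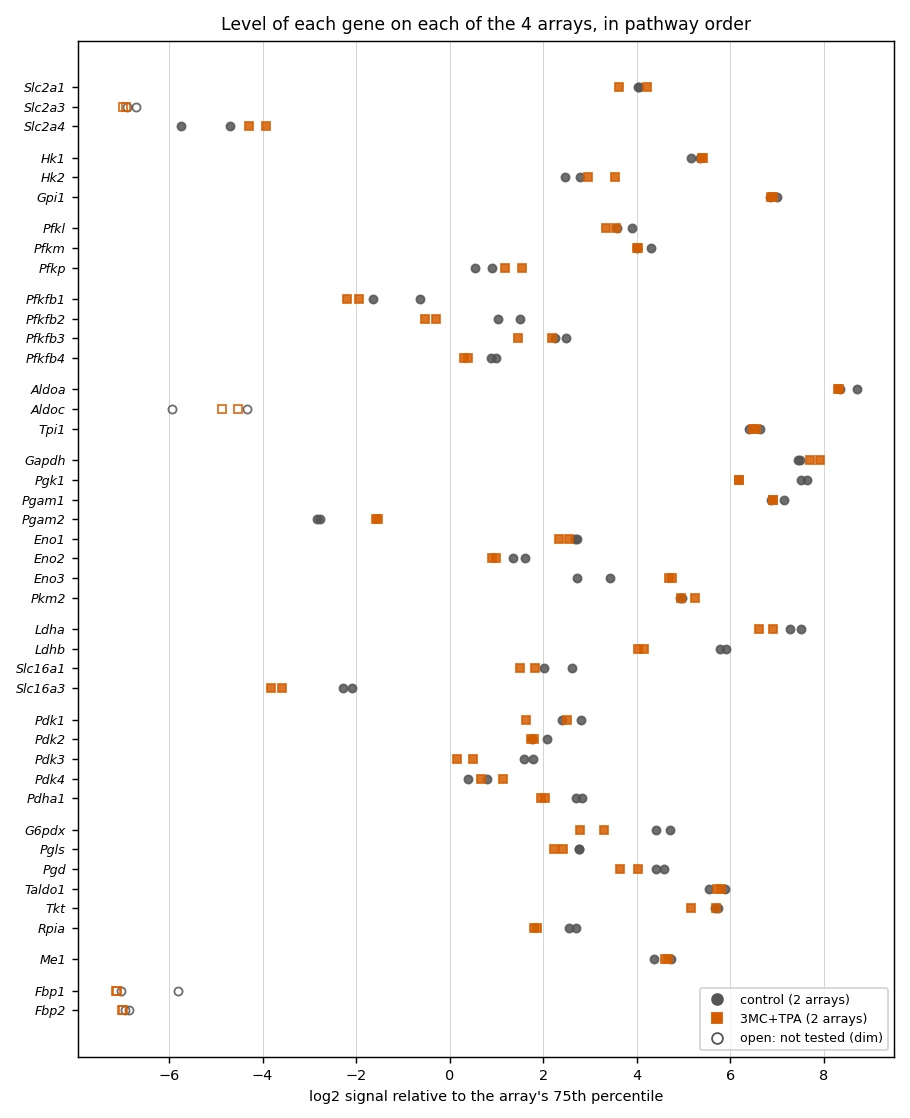
Level of the brightest probe of each of the 42 genes on each of the 4 arrays, on the log2 scale with the 75th percentile of the array at 0, with grey circles for control and orange squares for 3MC+TPA. Open symbols mark the 4 genes too dim to test. The pairs of Pgk1, Ldhb, G6pdx, Pdk3 and Pfkfb2 stand apart, and those of Gpi1, Tpi1 and Me1 lie on each other, while the position of one gene against another has no meaning here.

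Of the 4 genes of lactate handling 2 fell, and the other 2 had negative changes that did not pass. The groups overlapped for none of the 4, as for 63.8% of all features, and 50.7% of all features were negative. Ldhb, the lactate dehydrogenase subunit of heart and of oxidative tissues, stood at 5.78 and 5.92 on the control arrays and at 4.03 and 4.16 on the 3MC+TPA arrays. Both exposed values lay far below both controls, and the fall of 1.75 ± 0.16, or 3.37-fold, had the smallest adjusted p of the 38 genes (0.0040). With 1 array left out it lay between 0.010 and 0.032. Ldha, the subunit of muscle and of glycolytic tumours, stood at 7.51 and 7.27 in control and 6.91 and 6.63 in exposed cells, and its change of -0.62 ± 0.19 did not pass (adjusted p = 0.086). Its second probe had a change of -0.45. Slc16a3, the carrier MCT4 that exports lactate from glycolytic cells, stood at -2.08 and -2.27 on the control arrays and at -3.58 and -3.82 on the 3MC+TPA arrays. It fell by 1.52 ± 0.17, or 2.88-fold (adjusted p = 0.0077), on a single probe. Over the alternatives tried its change ran from -1.64 to -0.92, and it did not pass in all of them. Slc16a1, the widespread carrier MCT1, had a change of -0.65 ± 0.26 (adjusted p = 0.15), and its second probe one of -0.60.

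At the gate to the mitochondrion, a kinase and the subunit it acts on both fell. Pdk3, a kinase that switches pyruvate dehydrogenase off, stood at 1.60 and 1.78 on the control arrays and at 0.17 and 0.49 on the 3MC+TPA arrays, and fell by 1.36 ± 0.19, or 2.57-fold (adjusted p = 0.012). Both of its probes fell, by 1.36 and 1.08, and without 3MC+TPA array 1 the adjusted p was 0.062. Pdha1, the catalytic alpha subunit of pyruvate dehydrogenase, stood at 2.71 and 2.84 in control and at 2.03 and 1.95 in exposed cells. It fell by 0.78 ± 0.15, or 1.72-fold (adjusted p = 0.032), while its second probe, with a change of -0.64, missed the threshold (adjusted p = 0.0503). With 1 array left out in turn the adjusted p of Pdha1 lay between 0.066 and 0.14, so its call rests on all 4 arrays. Without scaling between arrays it did not pass either. The other kinases did not pass: Pdk1, a target of the hypoxia factors, had a change of -0.54 ± 0.34, Pdk2 of -0.14 ± 0.18 and Pdk4, the kinase of fasting, of 0.31 ± 0.24. For Pdk1 the exposed arrays gave 2.51 and 1.64, wider than the gap between the groups.

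In the pentose phosphate pathway the entry enzyme and a sugar isomerase fell, while the enzymes that return carbon to glycolysis did not pass. G6pdx, the rate-limiting dehydrogenase and first source of NADPH, stood at 4.41 and 4.71 on the control arrays and at 2.79 and 3.29 on the 3MC+TPA arrays. It fell by 1.52 ± 0.23, or 2.86-fold (adjusted p = 0.017). Without control array 2 or 3MC+TPA array 1 the adjusted p was 0.055 or 0.067. Pgls, the lactonase of the second step, stood at 2.77 and 2.76 in control and at 2.23 and 2.42 in exposed cells, with a change of -0.44 ± 0.16 (adjusted p = 0.12). Pgd, the dehydrogenase of the third step and the other source of NADPH, had a change of -0.66 ± 0.20 on its brighter probe (adjusted p = 0.089), and its dimmer probe fell by 0.78 (adjusted p = 0.033 over probes). Rpia, which makes ribose phosphate, stood at 2.56 and 2.70 on the control arrays and at 1.81 and 1.87 on the 3MC+TPA arrays, and fell by 0.79 ± 0.15, or 1.73-fold (adjusted p = 0.031). With 1 array left out its adjusted p lay between 0.063 and 0.12, and it did not pass without scaling. The transaldolase Taldo1 had a change of 0.04 (interval -0.42 to 0.51) and the transketolase Tkt one of -0.29 (interval -0.86 to 0.29), with a dimmer Tkt probe of the opposite sign at 0.15. Me1, the malic enzyme that also makes NADPH, had a change of 0.07 (interval -0.41 to 0.55). Neither gluconeogenic phosphatase was well above background on any array.

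**Figure D3:**
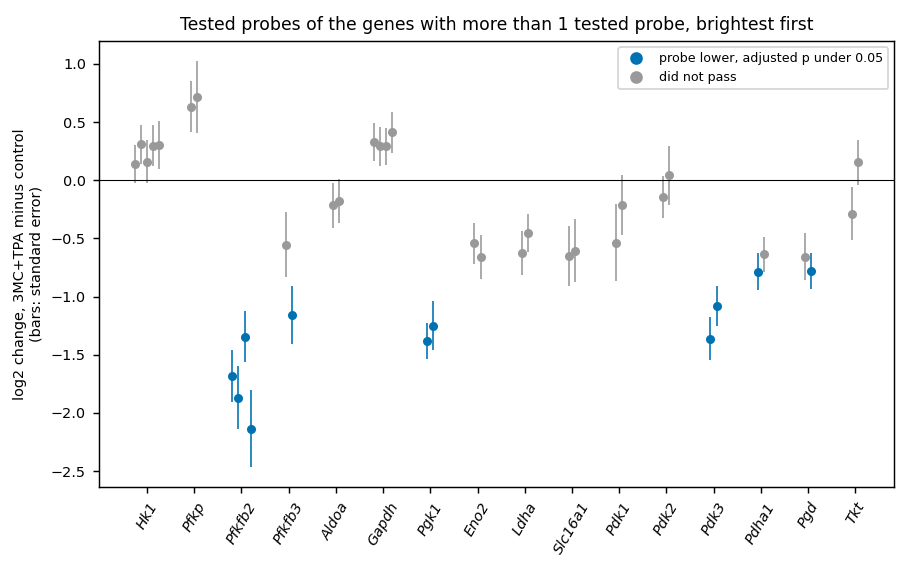
Change of every tested probe of the 16 genes with more than 1 tested probe, brightest first, as log2 difference with its standard error. Blue probes fell and none rose. The 4 probes of Pfkfb2 and both probes of Pgk1 and Pdk3 fell, those of Pdha1, Pgd and Pfkfb3 split between a fall and no call, and those of Tkt and Pdk2 differ in sign. The dimmest tested probes of Pfkfb2 and Pfkfb3 were not well above background in the exposed cells, and their plotted values are fitted to those signals.

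Among the 61 tested probes of these genes, 15 fell and 2 rose in a fit in which each probe counts, beside 8.05% and 7.44% of all tested probes. Probes of 1 gene share their transcript and are no replicates. The dimmest tested probes of Pfkfb2 and Pfkfb3, among those that fell, were tested through the control arrays alone. Without 3MC+TPA array 1 or array 2 only 3 probes passed.

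Of the 8 genes that fell, 4 lie on the X chromosome and 4 on other chromosomes. The 5 genes on the X chromosome, Pgk1, G6pdx, Pdk3, Pdha1 and Pfkfb1, all had negative changes, their median change was -1.36, and the first 4 of them fell. Their groups did not overlap, which also held for 80.7% of all X features, and 72.1% of X features were negative. Of the 33 tested genes on other chromosomes, 4 fell and 2 rose, with a median change of -0.14. The X chromosome as a whole was also lower: 29.6% of its 538 tested features fell and 7.25% rose, with a median change of -0.43. Among the 387 X features matched by accession alone 38% fell, with a median of -0.65, and with no filter on dim probes the X median was -0.13, beside -0.08 for all features. On the other chromosomes 8.31% of 14113 features fell, with a median of 0.03, and the next highest share of falls was 14.7%, on chromosome 16. Without these 5 genes the share on X was 29.1%. All 4 pairings of an exposed with a control array gave a median between -0.46 and -0.42 for X features and between 0.01 and 0.05 for the rest.

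**Figure D4:**
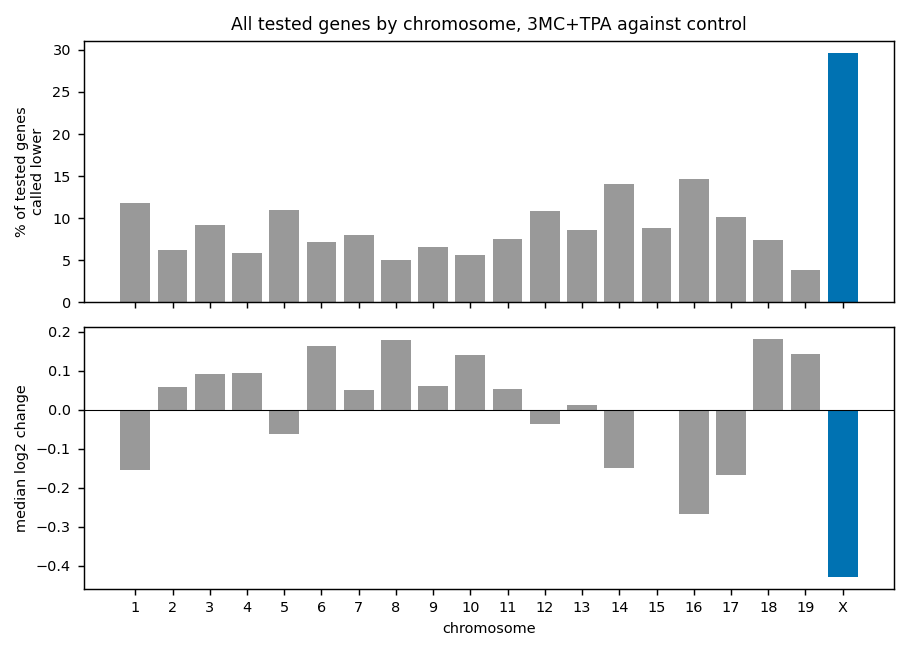
Share of tested features that fell in 3MC+TPA cells (top, percent) and their median log2 change (bottom) for each chromosome. The X chromosome, in blue, has the highest share, at 29.6%, and the lowest median, at -0.43.

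Within the X chromosome these genes lay in the lower part of the range. G6pdx stood at percentile 8.18 of the X features, Pgk1 at 9.67, Pdk3 at 10.4, Pfkfb1 at 22.7 and Pdha1 at 30.5. Relative to the X median, Pgk1 differed by -0.96, G6pdx by -1.09, Pdk3 by -0.93, Pfkfb1 by -0.51 and Pdha1 by -0.36. Against the X features matched by accession alone these values were -0.74, -0.87, -0.71, -0.29 and -0.14, so those of Pfkfb1 and Pdha1 depend on which features are counted as X. The median change of the 20 nearest tested genes on the chromosome, 10 on either side, was -0.69 around G6pdx, -0.56 around Pdha1, -0.55 around Pgk1, -0.42 around Pdk3 and -0.36 around Pfkfb1. Around autosomal genes that passed it was 0.16 for Ldhb, -0.09 for Slc16a3, 0.15 for Rpia, -0.01 for Eno3 and 0.06 for Pgam2. Around the autosomal gene Pfkfb2 it was -0.30, close to the -0.36 around Pfkfb1. Xist, the RNA that coats and silences an inactive X, stood at 4.93 and 4.74 on the control arrays and at 3.74 and 3.52 on the 3MC+TPA arrays, and fell by 1.20 ± 0.17 (adjusted p = 0.014). Tsix, its antisense partner, fell by 0.91 ± 0.17 (adjusted p = 0.027), and whether each probe reads only its own strand was not tested. The part of Xist or of the number of X chromosomes in the falls of the 5 genes was not tested. Without 3MC+TPA array 1 or array 2 the features on X that fell numbered 43 or 41 in place of 159, and without control array 2 they numbered 69. In these 3 fits 1 or 2 of the 5 genes fell.

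**Figure D5:**
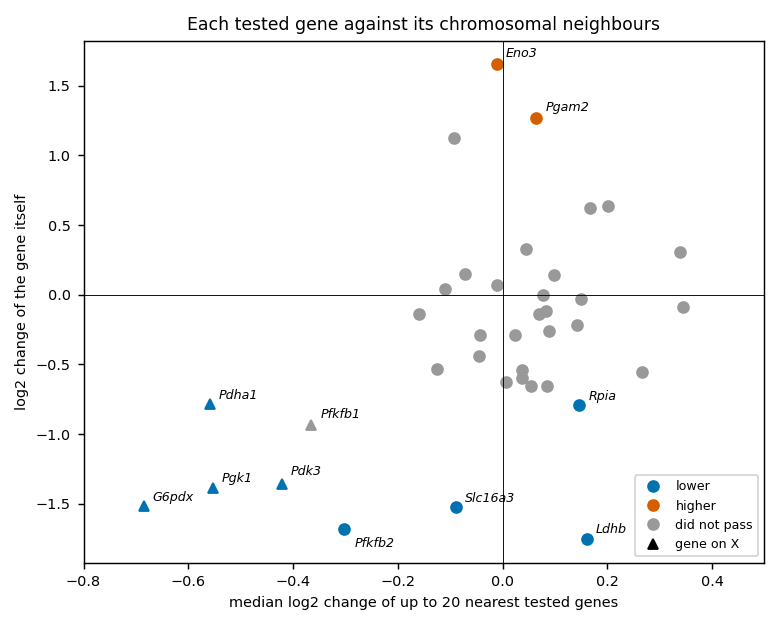
Change of each tested gene (vertical, log2) against the median change of up to 20 nearest tested genes on its chromosome (horizontal, log2), with triangles for genes on X. The 5 X genes lie at neighbour medians of -0.69 to -0.36 with changes of -1.52 to -0.78. Of the autosomal genes that fell, Ldhb, Slc16a3 and Rpia lie at neighbour medians between -0.09 and 0.16, and Pfkfb2 lies at -0.30.

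The promoters of the 4 X genes that fell and of the 2 muscle isozymes that rose are shown because their CpG content differs. These promoters were picked by call and by CpG content, so the contrast is no result, and it does not extend to all genes that fell. Each runs from 250 bases before to 50 after the start, taken 5′ to 3′ from RefSeq on GRCm38.p6, and capitals mark ACGTG or GCGTG read on either strand, the core of the element that hypoxia-inducible factors bind.
Pgk1, chrX:106186850-106187149, plus strand: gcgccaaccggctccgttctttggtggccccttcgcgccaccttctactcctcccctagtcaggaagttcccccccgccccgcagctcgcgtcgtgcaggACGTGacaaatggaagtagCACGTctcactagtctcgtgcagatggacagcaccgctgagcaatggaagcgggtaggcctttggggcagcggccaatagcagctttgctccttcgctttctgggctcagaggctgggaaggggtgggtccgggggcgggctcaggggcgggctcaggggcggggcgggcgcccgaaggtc
G6pdx, chrX:74428831-74429130, minus strand: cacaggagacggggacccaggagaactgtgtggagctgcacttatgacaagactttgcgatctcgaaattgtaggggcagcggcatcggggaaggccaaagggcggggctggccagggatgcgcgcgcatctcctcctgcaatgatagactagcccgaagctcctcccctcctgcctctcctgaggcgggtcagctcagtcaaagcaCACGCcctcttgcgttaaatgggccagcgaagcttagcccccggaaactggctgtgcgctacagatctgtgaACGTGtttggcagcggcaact
Pdk3, chrX:93832101-93832400, minus strand: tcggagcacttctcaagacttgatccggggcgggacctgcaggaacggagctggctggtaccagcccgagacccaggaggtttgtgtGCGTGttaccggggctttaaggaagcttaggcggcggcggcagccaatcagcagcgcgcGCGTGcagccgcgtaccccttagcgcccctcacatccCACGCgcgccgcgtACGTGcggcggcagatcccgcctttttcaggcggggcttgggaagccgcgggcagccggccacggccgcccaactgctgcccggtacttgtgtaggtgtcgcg
Pdha1, chrX:160138381-160138680, minus strand: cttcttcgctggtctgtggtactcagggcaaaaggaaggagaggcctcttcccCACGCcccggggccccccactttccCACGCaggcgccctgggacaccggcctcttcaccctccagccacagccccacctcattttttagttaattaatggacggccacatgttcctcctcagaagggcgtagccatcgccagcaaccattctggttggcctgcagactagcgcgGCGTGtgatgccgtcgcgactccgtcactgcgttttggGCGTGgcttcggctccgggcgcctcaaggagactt
Eno3, chr11:70656926-70657225, plus strand: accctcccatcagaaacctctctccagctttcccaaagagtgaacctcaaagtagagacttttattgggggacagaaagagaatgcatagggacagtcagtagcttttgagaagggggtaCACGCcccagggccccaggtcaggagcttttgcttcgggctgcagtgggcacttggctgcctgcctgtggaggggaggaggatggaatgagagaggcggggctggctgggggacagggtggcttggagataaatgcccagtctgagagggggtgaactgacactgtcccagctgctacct
Pgam2, chr11:5803747-5804046, minus strand: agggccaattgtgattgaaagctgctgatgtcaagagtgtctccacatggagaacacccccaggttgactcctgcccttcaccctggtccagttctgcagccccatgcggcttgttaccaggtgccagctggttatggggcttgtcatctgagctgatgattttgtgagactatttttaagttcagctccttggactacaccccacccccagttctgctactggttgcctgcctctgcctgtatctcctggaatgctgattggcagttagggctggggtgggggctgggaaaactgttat
The window held 24 CpG in Pgk1, 18 in G6pdx, 35 in Pdk3 and 21 in Pdha1, against 3 in Eno3 and 1 in Pgam2 and a median of 7 over all 32851 promoters of the table. Promoters of all genes that fell ran from 1 to 36 CpG, and the 3 of the autosomal gene Pfkfb2 held 1, 8 and 14. The hypoxia core occurred 2 times in Pgk1 and G6pdx, 4 times in Pdk3 and Pdha1, and 1 time in Eno3, and these letters were not in the Pgam2 window. It is a short and common motif, present in 43.8% of all promoters of this length. Of the 42 genes, 40 were matched to 61 promoters, of which 45 (73.8%) held it. All 8 genes that fell had it in at least 1 promoter, as did 24 of 27 that did not pass. Counted by promoter, it was in 10 of 10 for genes that fell and in 31 of 45 (68.9%) for those that did not pass. Whether these shares differ was not tested. CpG counts of promoters of genes that did not pass ran from 0 to 42, a range that covers that of the genes that fell. Slc2a3 and Slc2a4 were not matched.

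Beside these genes, 151 others of the same and neighbouring pathways were read from 11 lists, and 126 were tested. Of these 126, 11 rose and 13 fell, beside 7.34% and 8.35% of all features, and the median change was -0.04. Among other isozymes of lower glycolysis and lactate transport, 3 rose and 2 fell of 13 tested. Bpgm, which diverts a glycolytic intermediate, rose 2.01-fold, and Slc16a4, a monocarboxylate carrier, fell 1.96-fold. Among other hexose carriers and first steps, 2 rose and 3 fell of 12 tested, with Slc2a13, a myo-inositol carrier, 2.56-fold lower, Galm, the mutarotase, 2.19-fold lower and the carrier Slc2a6 2.04-fold higher.

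Other NADPH and ribose enzymes moved in both directions, with 2 higher and 3 lower of 13 tested. Idh1, the cytosolic isocitrate dehydrogenase, stood at 0.87 and 1.27 on the control arrays and at -0.91 and -1.16 on the 3MC+TPA arrays and fell 4.29-fold (adjusted p = 0.0052). G6pd2, a near-identical copy of G6pdx on chromosome 5, fell 3.29-fold (adjusted p = 0.044), and whether its probe and that of G6pdx read each other's RNA was not tested. Prps1, the X-linked synthetase that takes up ribose phosphate, fell 2.07-fold. Me3, a mitochondrial malic enzyme not well above background on the control arrays, was tested through the exposed arrays alone, which favours a rise. It was at least 1.38-fold higher (adjusted p = 0.039).

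The steps past pyruvate gave few calls. Among 9 tested genes of pyruvate entry and 18 of the citric acid cycle none passed in the main limma fit. At an unadjusted p under 0.05 there were 2 and 6, and 0 and 6 in the methods' t-test. In limma-trend, an alternative fit, 2 and 3 passed. The largest changes in these lists were -0.69 ± 0.19 for Pcx, pyruvate carboxylase (adjusted p = 0.071), and -0.74 ± 0.18 for Idh3g, an X-linked subunit of isocitrate dehydrogenase (adjusted p = 0.056). None of 6 hexosamine genes and none of 3 gluconeogenic genes passed, with 1 at an unadjusted p under 0.05 in each list in limma and 0 in the t-test. In the glycogen list 2 rose and 1 fell of 8. Stbd1, a glycogen-binding protein, rose on the fit, yet the control arrays stood at -2.26 and -5.19 against 1.14 and 1.13 in exposed cells, so the control arrays lay far apart. Gys1, glycogen synthase of muscle, fell 2.13-fold and Pygb, a phosphorylase, rose 1.95-fold. In the serine list Shmt1, a cytosolic serine hydroxymethyltransferase, fell 3.06-fold, the 1 call of 5.

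Of 22 tested regulators of glycolysis genes, 1 passed. Epas1, the hypoxia factor HIF-2 alpha, stood at 6.30 and 6.17 on the control arrays and at 3.58 and 3.30 on the 3MC+TPA arrays, a 6.97-fold fall (adjusted p = 0.0015). Hif1a, its relative in the response to low oxygen and the factor best known for glycolysis genes, had a change of -0.28 ± 0.17 (adjusted p = 0.31). Targets of these factors outside glycolysis split, with 2 higher and 2 lower of 17. Adm, a vasodilator peptide, fell 4.00-fold and P4ha2, a collagen prolyl hydroxylase, 1.95-fold, while Ndrg1, a stress protein, rose 2.33-fold.

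The arrays held 32125 to 32512 spots well above background, with none saturated, and lay on 1 slide with the control arrays side by side, so slide position and treatment cannot be told apart. All 10 fibroblast markers were well above background on all 4 arrays, with Thy1 higher and Pdgfra and Pdgfrb lower. Of the markers of leukocytes, epithelium and endothelium, 4 of 8, 3 of 7 and 4 of 5 were never well above background. Of these 3 lists only Tek passed, with a fitted rise of 1.80. Tek was not well above background on all 4 arrays, so it was tested through 1 group alone. Of 10 adipocyte markers, 5 were tested and Pparg, Cfd and Cebpa fell. The summed level of the 10 adipocyte markers ran from 4.39 to 4.54 over the control arrays and from 3.99 to 4.16 over the 3MC+TPA arrays. The part of these markers in the falls above was not tested. Genes of proliferation had a median change of -0.63, with none of 10 past the threshold in the main limma fit. At an unadjusted p under 0.05 there were 3, and 0 in the methods' t-test, while 1 passed in limma-trend. The summed level of the proliferation genes ran from 6.03 to 6.85 over the control arrays and from 5.87 to 5.90 over the 3MC+TPA arrays. Its part was not tested.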

How the data were processed

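RNA of 2 control and 2 3MC+TPA samples was read on 4 arrays in 1 colour (Cy3), grouped by their titles. The intensity of each spot was made with Agilent Feature Extraction 10.7.3.1, per the file headers, background-subtracted and detrended, with substitute values for dim spots. The deposited table holds log2 values by the authors (GeneSpring GX 11.5, per the series' design text), equal to those used here within 0.05 for at least 61238 of 61307 probes. The threshold of the study's own t-test is not stated there.

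Each array's 75th percentile, taken over its non-control spots free of outlier flags, was subtracted from the log2 processed signals (percentiles at signals of 538.9, 594.0, 698.5 and 744.6). A gene name is a feature, read by its brightest probe, and was tested where that probe was well above background on both arrays of at least 1 group. Groups were compared with limma 3.58.1 (lmFit, eBayes, 2-sided) in R 4.3.3, adjusted by Benjamini-Hochberg over 24976 features at 0.05, and likewise over 32103 probes. The fit was tested on simulated data with independent noise, which cannot show whether the spread in these arrays is technical. For an at-least fold, the dim group was given on each array its own signal or the dimmest one well above background, whichever was higher.

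Chromosomes come from a gene table of GRCm38.p6, matched by accession and then name, for 14651 tested features. The array's own grid is on mm9, so no gene coordinates are given, and where probes lie in their transcripts was not analysed here. The rule named all 42 genes and, of each other list, up to 3 genes with the largest change that passed, or else the largest change, except 1 gene that is not reported here; Prps1, Hif1a, Xist, Tsix and the markers were named outside it, after their values were seen. Members and lists were chosen with earlier results of these data known, and the count by chromosome was added after the members' values were seen. Alternatives changed the values, background correction, scaling, filter, probe, spread model, test, replicate block and arrays.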

Additional observations from a re-analysis of the deposited data

How the results depend on the processing

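Counts in this order of results are given first as reported: 3917 features, 10 of the glycolysis and pentose phosphate genes (8 lower, 2 higher), 24 genes of the other lists, 159 X features lower, 4 X members lower and 17 member probes. Leaving out 1 array in turn gave 1188 to 3281 features, 3 to 10 of these genes (3 to 7 lower, 0 to 3 higher), 5 to 17 list genes, 41 to 119 X features, 1 to 4 X members and 3 to 15 probes; the lone array of a group is then assumed to vary like the other group. With no filter on dim probes the counts were 926 features, 3 genes (2 lower, 1 higher: Ldhb, Pgk1 and Pgam2), 2 list genes, 36 X features and 1 X member. Without scaling 6688 features passed, 79.1% of them higher against 46.8%, with 5 genes higher and 81 X features lower. The methods' t-test after adjustment gave 21 features and 0 genes, list genes and X features, and unadjusted it gave 12 genes. With normexp 13 genes were lower, among them Pfkfb4, Ldha, Pgd, Eno2 and Pgls, which did not pass in the main fit. Pfkfb4, Ldha and Pgd also passed in limma-trend, which gave 38 list genes. The cause of these shifts was not tested. The replicate number as a block gave 3407 features, 9 genes (6 lower, 3 higher), 19 list genes, 137 X features, 3 X members and 13 probes. Same-numbered arrays did not deviate together (correlation 0.0015). This cannot show whether they share a culture or a day, and no label says what the numbers share. Under the block Rpia (adjusted p = 0.053) and Pdha1 (0.059) did not pass, and Slc2a4 (0.049), tested through the exposed arrays alone, did.

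No gene that passed changed sign. Genes that did not pass turned sign as follows. Without scaling the changes were 0.230 for Slc2a1, 0.321 for Gpi1, 0.0608 for Pfkl, 0.209 for Pfkm, 0.135 for Aldoa, 0.345 for Tpi1, 0.264 for Pgam1, 0.0919 for Eno1, 0.210 for Pdk2 and 0.0644 for Tkt. With quantile normalization they were 0.103 for Gpi1, 0.0677 for Aldoa, 0.0812 for Tpi1 and 0.0541 for Pgam1, with median scaling 0.0343 for Gpi1 and 0.0589 for Tpi1, with normexp 0.0109 for Tpi1, and on the second probe 0.0425 for Pdk2 and 0.155 for Tkt. With 1 array left out they ran from -0.414 to 0.175 for Slc2a1, from -0.100 to 0.0410 for Gpi1, from -0.288 to 0.00647 for Pfkm, from -0.131 to 0.120 for Tpi1, from -0.222 to 0.0498 for Pgam1, from -0.00951 to 0.307 for Pkm2, from -0.298 to 0.0169 for Pdk2, from -0.125 to 0.209 for Taldo1 and from -0.113 to 0.258 for Me1.

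With 2 arrays a group, the number of arrays limits the precision. The slide could not be run as a block, since all arrays lie on 1 slide.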
